A study of Mus musculus with 10 samples.

Results

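Transcripts of 10 genes of the p53 response and of apoptosis were compared between wild-type and *Grhl2-/-* first pharyngeal arches (PA1). The genes were *Cdkn1a*, *Mdm2*, *Ccng1*, *Trp53inp1*, *Phlda3*, *Bax*, *Bbc3*, *Pmaip1*, *Sesn2* and *Fas*, and they were taken by name from a table of 22114 protein-coding genes, in which each of the 10 occurred once. RNA was sequenced from the PA1 of 5 wild-type and 5 *Grhl2-/-* embryos of the C57BL/6 background (C57BL/6J in the study's methods) at E10.5, all of them male. The *Grhl2-/-* embryos were homozygous for a germline null allele of *Grhl2*, a transcription factor of surface epithelium, and came from intercrosses of heterozygotes. Each library held the RNA of a whole arch, a mixture of epithelium, neural crest-derived mesenchyme, mesoderm, vessels, blood and nerve, so that fewer cells of a type and less RNA per cell cannot be told apart. The sample titles carry a number. Embryos of both genotypes share the numbers 566, 568 and 588, while 628 and 604 occur only for *Grhl2-/-* replicates 2 and 5. No source used here says what the number marks, so that a shared litter is possible. The p-values treat the libraries as independent and measure the spread between these samples.

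The transcription factor p53 is held at a low level by the ubiquitin ligase MDM2 and accumulates when DNA damage, ribosomal defects or other stresses interrupt this control. It then activates genes that stop the cell cycle, restrain growth signalling or permeabilise the mitochondrial membrane, and *Mdm2* itself is among its targets, which closes a feedback loop. In cranial neural crest and its derivatives, excess p53 activity is a known cause of cell death and craniofacial malformation.

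One member passed the limma-voom test. *Cdkn1a*, the inhibitor of cyclin-dependent kinases through which p53 arrests the cell cycle, rose 1.63-fold in *Grhl2-/-* PA1. In limma-voom and in edgeR it was the only one of the 9 members tested that passed an FDR of 0.01, or 11.1% of them, while DESeq2, which called 7.37% of all genes and 3.57% as higher, called 2, *Cdkn1a* and *Ccng1*, and 0 members were lower with any of the 3 tools. Over all 14561 genes tested, 1.96% passed this threshold in limma-voom (2.08% in edgeR) and 0.879% were higher. At an unadjusted p below 0.05, the limma-voom fit gave 7 of the 9 members, all with higher values in *Grhl2-/-* PA1, where 28.5% of all genes passed and 14.2% were higher. Without wild-type replicates 1 and 2, which had few sensory neuron transcripts, 5 of the 9 members passed, against 18.2% of all genes, *Bbc3* and *Sesn2* no longer did, and *Cdkn1a* was not called. An exact permutation p below 0.05 was found for 7 of the 10 members and for 25.9% of all genes tested. The log2 fold change was above 0 for 7 of the 9 members and for 52.7% of all genes tested, and its median was 0.37 for the members and 0.01 for all genes. *Mdm2* and *Bax* lay within 0.05 of 0 on the log2 scale, and *Fas* had too few reads to be tested.

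Total counts per library ranged from 22188454 to 28801378, with a median of 27574647, so that 3 reads corresponded to between 0.104 and 0.136 CPM (counts relative to the library total, scaled with TMM factors, which equalise the bulk of genes between libraries). The targeted gene, *Grhl2*, had a mean of 35.6 ± 3.29 CPM over wild-type and of 4.53 ± 1.45 CPM over *Grhl2-/-* libraries (SD, n = 5 each). On the log2 scale the fold change was -3.02 (limma-voom FDR 2.67e-06), and every *Grhl2-/-* library lay below every wild-type library. The 8 markers of arch ectomesenchyme each had at least 3 reads in every library. Their summed level was between 1390 and 1756 CPM in wild-type PA1 and between 1137 and 1387 CPM in *Grhl2-/-* PA1, 7 of the 8 log2 fold changes were below 0, and 1 marker, *Msx1*, was called lower (limma-voom FDR 0.00595). DESeq2 called 3 of them lower, and limma-voom 0 without wild-type replicates 1 and 2 (3 at an unadjusted p below 0.05). The summed level of 8 epithelial markers was between 265.1 and 367.5 CPM in wild-type PA1 and between 113.8 and 209.1 CPM in *Grhl2-/-* PA1. For 6 endothelial markers, 0 of which was called in limma-voom or edgeR (4 at an unadjusted p below 0.05) and 2 in DESeq2, the sum was between 330.3 and 371.3 CPM in wild-type and between 366.9 and 426.4 CPM in *Grhl2-/-* PA1. The 6 primitive erythroid markers, all with log2 fold changes below 0 (median -0.34, 0 called with any of the 3 tools, 4 at an unadjusted p below 0.05 in limma-voom), summed to between 3633 and 6174 CPM in wild-type and between 2859 and 3869 CPM in *Grhl2-/-* PA1. Of all genes, 28.5% passed an unadjusted p below 0.05 in limma-voom, and 18.2% without wild-type replicates 1 and 2. At an FDR of 0.01, limma-voom called 1.09% of all genes lower, and DESeq2 called 3.57% higher and 3.8% lower. The part of these marker differences in the members' values was not tested. The summed level of 9 sensory neuron markers was 42.8 CPM in wild-type replicate 1 and 38.2 CPM in wild-type replicate 2, and between 246.8 and 937.7 CPM in the other libraries. Values without these 2 wild-type libraries are given beside the members whose call, or whose unadjusted p below 0.05, they change, and beside the counts of the pathway lists.

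*Cdkn1a* lies at chr17:29090976-29100727 on the plus strand of GRCm38 and has 4 merged exon blocks, which overlap a putative transcript on the opposite strand. In the wild-type libraries, replicates 1 to 5, it was measured at 5.90, 6.97, 8.16, 6.00 and 8.32 CPM, from 130 to 234 reads. In the *Grhl2-/-* libraries, replicates 1 to 5, it was measured at 10.1, 13.0, 11.1, 10.2 and 13.5 CPM, from 282 to 349 reads. Every *Grhl2-/-* value was above every wild-type value, a separation found in this direction in 4.22% of all genes tested and in either direction in 8.88%. The means were 7.07 ± 1.15 and 11.6 ± 1.58 CPM (SD, n = 5 each), and the log2 fold change was estimated at 0.70 (95% confidence interval 0.42 to 0.98, standard error 0.13, limma-voom FDR 0.00872). A two-sided exact permutation test gave p = 0.00794, the smallest value that 5 against 5 libraries allow.

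The FDR of *Cdkn1a* lay close to the threshold. It stayed below 0.01 when *Grhl2-/-* replicate 1 was left out, and was between 0.0119 and 0.0260 when any one of the other 9 libraries was left out, with log2 fold changes of 0.64 to 0.76 over the 10 fits. Without wild-type replicates 1 and 2, the libraries with few sensory neuron transcripts, the log2 fold change was 0.61 (limma-voom FDR 0.0905). The wild-type library with the highest sensory neuron sum, replicate 4 at 740.8 CPM, had 6.00 CPM of *Cdkn1a*. *Grhl2-/-* replicates 1 and 4, which had the lowest such sums of their genotype at 246.8 and 273.2 CPM, also had its lowest *Cdkn1a* values. With the mean of the sensory neuron markers as a covariate in the fit of all 10 libraries, the log2 fold change was 0.62 (limma-voom FDR 0.0303). With the number in the sample titles as a block it was 0.55 (limma-voom FDR 0.0515), and *Cdkn1a* was not called. *Grhl2-/-* replicates 2 and 5, which had the highest *Cdkn1a* values, each carry a number found in no other library. They therefore add nothing to the genotype difference estimated in that fit.

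Of 7 genes that mark proliferating cells, such as *Mki67* and *Top2a*, 0 passed an FDR of 0.01 in limma-voom or edgeR. In DESeq2, which called 3.8% of all genes lower, 2 passed, both lower. All 7 log2 fold changes were below 0, with a median of -0.07. At an unadjusted p below 0.05 in limma-voom 3 of the 7 passed, as did 28.5% of all genes.

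**Figure D1:**
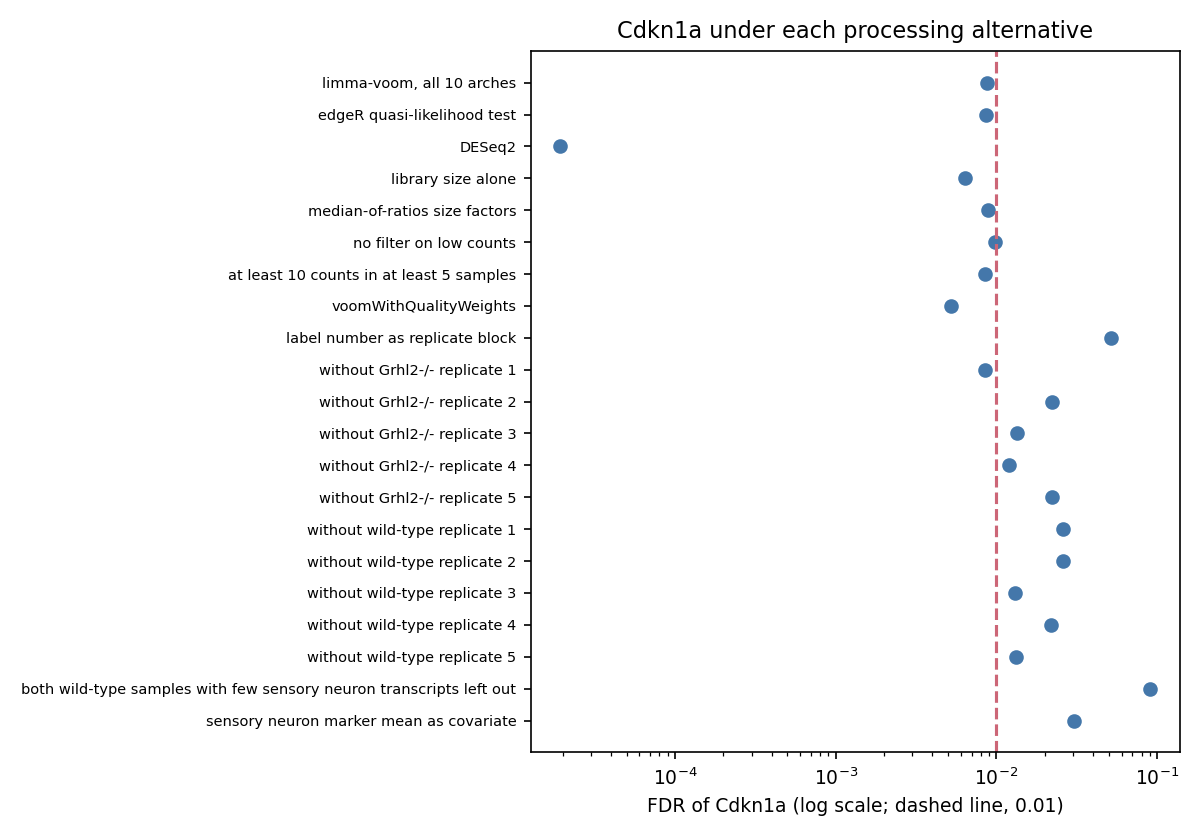
FDR of Cdkn1a (horizontal log scale) in the limma-voom fit of all 10 libraries and under each other setting, one point per fit, with the threshold of 0.01 as a dashed line. The fits with another normalisation, count filter or test lie left of the line. To its right lie 9 of the 10 fits that leave out 1 library, and those with the label number as a block, with the sensory neuron covariate and without wild-type replicates 1 and 2.

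Stretches upstream of *Cdkn1a*, the one member called in limma-voom, are shown beside those of the other members that hold the same motif. RefSeq gives promoter windows of 250 bases before to 50 bases after the start for 8 of the 10 members, 11 windows in all (GRCm38.p6). Both strands were searched for the p53 decamer, the 10-base unit of which a p53 response element holds a pair. The decamer occurred in 4 of the 11 member windows, 1 of 2 windows of *Cdkn1a* and those of *Mdm2*, *Ccng1* and *Bax*, and in 8.36% of all 32851 windows. A pair of directly adjacent decamers, both exact matches, occurred in 0 member windows and in 0.00913% of all windows. The matches describe letters in a window and say nothing of binding. Each is shown with 10 bases on either side and the decamer in capitals, 5′ to 3′ on the strand of the gene.
Cdkn1a, chr17:29090896-29090925, plus strand: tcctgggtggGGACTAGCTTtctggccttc
Cdkn1a, chr17:29090918-29090947, plus strand: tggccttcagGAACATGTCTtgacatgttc
Mdm2, chr10:117710925-117710954, minus strand: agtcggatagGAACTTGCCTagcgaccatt
Ccng1, chr11:40755452-40755481, minus strand: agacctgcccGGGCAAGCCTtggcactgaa
Bax, chr7:45467080-45467109, minus strand: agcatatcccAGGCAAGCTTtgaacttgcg

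The decamers of *Cdkn1a* began 73 and 51 bases before the upstream start (window chr17:29090729-29091028), that of *Mdm2* 186, that of *Ccng1* 185 and that of *Bax* 201 bases before it. The second *Cdkn1a* decamer runs into a further CATG core, and the 10 bases that follow this decamer miss the decamer pattern at their first base only. A pair of CATG cores with 6 bases between them reads the same on both strands and overlaps the second decamer. This pair was found in the same *Cdkn1a* window from 48 to 35 bases before the start and in 0.712% of all windows. The window of the second, downstream *Cdkn1a* start (chr17:29093519-29093818) held neither pattern. The CATG pair was searched after the *Cdkn1a* sequence had been read, and near matches to the decamer were not searched in other windows. Among the members with a decamer in these windows, the log2 fold change was 0.70 for *Cdkn1a*, 0.20 for *Ccng1* (called in DESeq2 only), -0.04 for *Mdm2* and -0.01 for *Bax*. A link between the decamers and the transcript levels was not tested.

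*Ccng1* and *Phlda3* are further targets of p53 that act back on growth and survival signalling. *Ccng1* encodes cyclin G1, which binds a subunit of protein phosphatase 2A and takes part in control of MDM2, and lies at chr11:40748552-40755311 on the minus strand. It was measured at 81.2, 76.2, 79.4, 87.0 and 75.1 CPM in wild-type replicates 1 to 5 and at 90.6, 96.1, 92.0, 95.7 and 83.8 CPM in *Grhl2-/-* replicates 1 to 5. In 4 of 5 *Grhl2-/-* libraries the value was above the highest wild-type value, and *Grhl2-/-* replicate 5 lay within the wild-type range. The log2 fold change was 0.20 (95% confidence interval 0.09 to 0.31, limma-voom FDR 0.0398, exact permutation p = 0.0159), short of the threshold of 0.01. In DESeq2 the FDR of *Ccng1* was 0.00654.

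*Phlda3* encodes a pleckstrin homology-domain protein that competes with AKT for membrane lipids, and lies at chr1:135766119-135769136 on the plus strand. It was measured at 13.9, 14.4, 12.2, 13.3 and 14.9 CPM in the wild-type libraries and at 14.9, 15.1, 16.1, 17.9 and 15.0 CPM in the *Grhl2-/-* libraries. The groups touched at 14.9 CPM, and 4 of 5 *Grhl2-/-* values were above the highest wild-type value. On the log2 scale, the fold change was 0.21 (0.04 to 0.37, limma-voom FDR 0.106, exact permutation p = 0.0159).

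*Trp53inp1* and *Sesn2* encode stress proteins. *Trp53inp1* (chr4:11156431-11174379, plus strand) encodes a nuclear protein that promotes phosphorylation of p53 and takes part in autophagy. It was measured at 79.5, 58.3, 72.9, 81.7 and 66.0 CPM in the wild-type libraries and at 76.0, 100.5, 107.5, 87.0 and 91.5 CPM in the *Grhl2-/-* libraries. Only *Grhl2-/-* replicate 1 lay within the wild-type range. A log2 fold change of 0.37 was estimated (0.13 to 0.61, limma-voom FDR 0.0577, exact permutation p = 0.0238), and 0.28 (limma-voom FDR 0.174) with the sensory neuron covariate. The highest value of each genotype was in the library with its highest sensory neuron sum, wild-type replicate 4 and *Grhl2-/-* replicate 3. Wild-type replicate 1, with few such transcripts, was at 79.5 CPM, and the part of these transcripts in *Trp53inp1* was not tested.

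*Sesn2* (chr4:132492032-132510501, minus strand) encodes sestrin 2, a leucine sensor that restrains mTORC1, and is induced by p53 and by the integrated stress response. It was measured at 21.2, 19.4, 18.0, 22.3 and 22.4 CPM in the wild-type libraries and at 21.6, 38.4, 23.1, 30.5 and 26.9 CPM in the *Grhl2-/-* libraries. The *Grhl2-/-* libraries were spread more widely than the wild-type libraries, with an SD of 6.72 against 1.91 CPM (n = 5 each), and replicates 2, 4 and 5 were the high ones, while replicate 1 lay within the wild-type range and replicate 3 just above it. The fitted log2 fold change was 0.42 (0.10 to 0.73, limma-voom FDR 0.0942, exact permutation p = 0.0317), and 0.39 (limma-voom FDR 0.292) without wild-type replicates 1 and 2.

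The same 3 *Grhl2-/-* libraries were high for *Ddit4*, a stress-induced inhibitor of mTORC1 that was singled out after its values were seen. *Ddit4* was measured at 148, 149 and 118 CPM in *Grhl2-/-* replicates 2, 4 and 5, at 41.8 and 42.0 CPM in replicates 1 and 3, and between 31.1 and 50.4 CPM in wild-type PA1 (limma-voom FDR 0.0771). The summed level of the 8 integrated stress response genes was 544.3, 541.7 and 527.7 CPM in these 3 libraries, 417.0 and 404.8 CPM in the other *Grhl2-/-* libraries and between 410.2 and 483.8 CPM in wild-type PA1. Most of this sum is abundant genes of the list, and without *Ddit4* the other 7 genes summed to 396.6, 393.0 and 410.1 CPM in the 3 libraries, within the wild-type range of 378.9 to 433.4 CPM. The scarcer *Trib3* and *Chac1*, also singled out after their values were seen, were at 6.20, 5.87 and 2.59 CPM and at 2.09, 1.53 and 0.927 CPM in the 3 libraries, above their highest wild-type values of 2.46 and 0.454 CPM, and below these in the other *Grhl2-/-* libraries. In all, 0 of the 8 genes passed an FDR of 0.01 in limma-voom or edgeR and 1, *Ddit4*, in DESeq2, which called 3.57% of all genes higher. At an unadjusted p below 0.05 in limma-voom, where 28.5% of all genes passed, 2 did, *Ddit4* higher and *Asns* lower. Of the 8 log2 fold changes, 6 were above 0, and those of *Atf4* (-0.11) and *Asns* (-0.19) were below 0. What *Ddit4* and *Sesn2* share in these libraries was not tested.

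**Figure D2:**
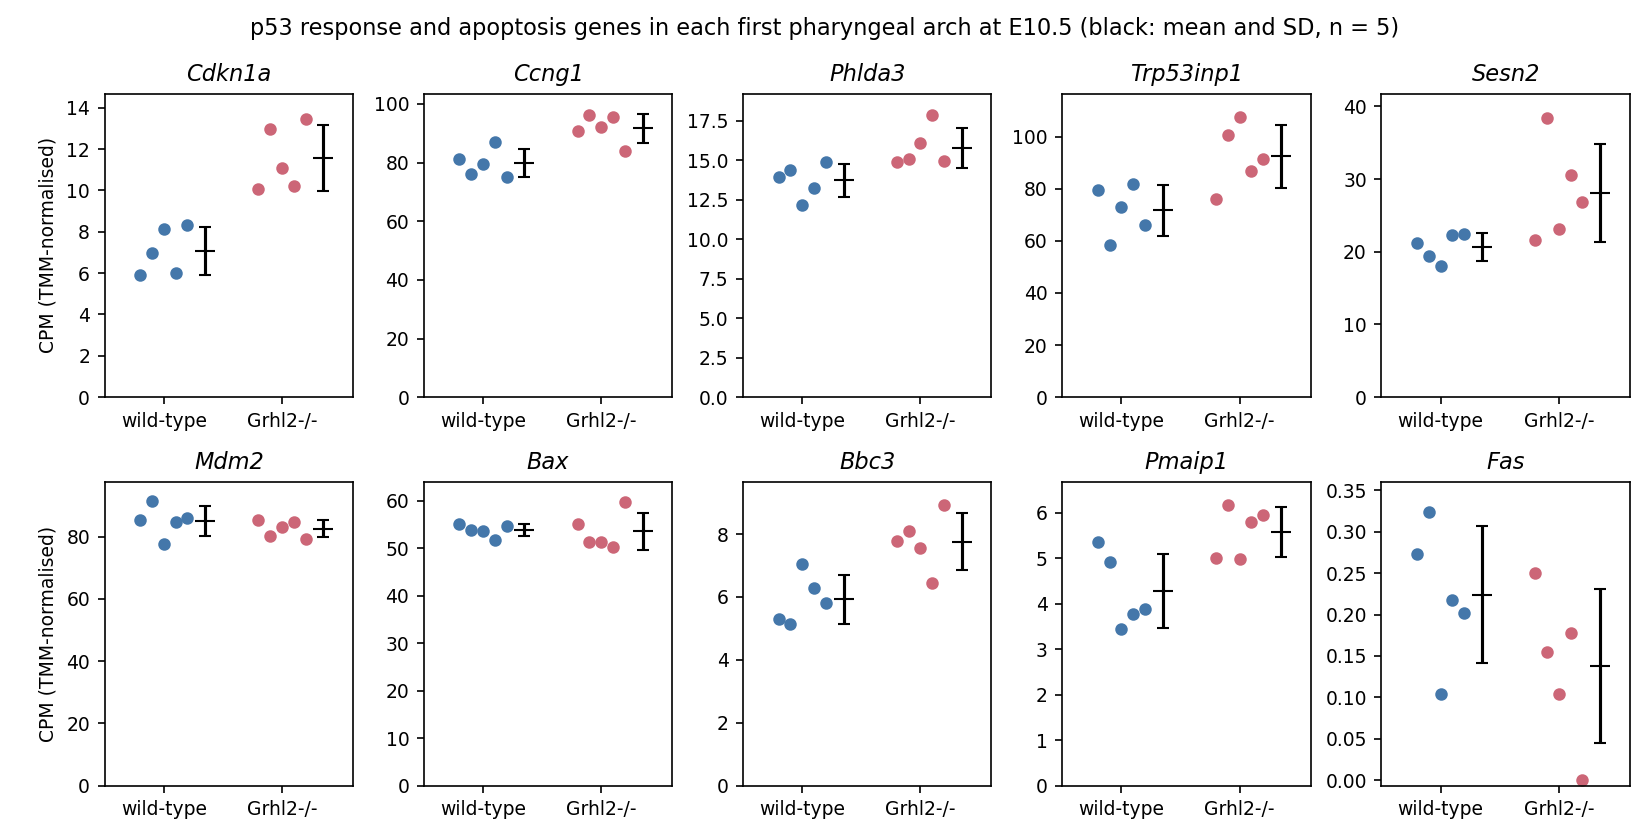
TMM-normalised CPM (vertical axes, from 0) of the 10 genes in each wild-type (blue) and Grhl2-/- (red) first pharyngeal arch, one point per library in the order of replicates 1 to 5, with the mean and SD (n = 5) in black. Cdkn1a is separated between genotypes, Mdm2 and Bax overlap between genotypes, and Fas lies below 0.33 CPM in all libraries.

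*Bax*, *Bbc3* and *Pmaip1* belong to the BCL2 family, which controls release of cytochrome c from mitochondria. *Bbc3* encodes PUMA and *Pmaip1* encodes NOXA, BH3-only proteins that neutralise the anti-apoptotic members, and *Bax* encodes an effector that forms the pore. *Bbc3* (chr7:16308393-16318205, plus strand) was measured at 5.31, 5.14, 7.04, 6.29 and 5.82 CPM in the wild-type libraries and at 7.78, 8.10, 7.55, 6.44 and 8.92 CPM in the *Grhl2-/-* libraries. Only *Grhl2-/-* replicate 4 lay within the wild-type range. The log2 fold change was 0.38 (0.13 to 0.63, limma-voom FDR 0.0622, exact permutation p = 0.0159), and 0.25 (limma-voom FDR 0.315) without wild-type replicates 1 and 2.

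*Pmaip1* (chr18:66458533-66465565, plus strand) was measured at 5.36, 4.93, 3.45, 3.78 and 3.88 CPM in the wild-type libraries and at 4.99, 6.16, 4.98, 5.80 and 5.95 CPM in the *Grhl2-/-* libraries. Its highest wild-type values were those of replicates 1 and 2, and 3 of 5 *Grhl2-/-* values were above them. The log2 fold change was 0.40 (0.11 to 0.69, limma-voom FDR 0.0806, exact permutation p = 0.0317). Without wild-type replicates 1 and 2 it was 0.57 (limma-voom FDR 0.0690), and no *Grhl2-/-* value then lay within the range of the remaining wild-type libraries.

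*Bax* (chr7:45461697-45466898, minus strand) shares exonic sequence with the gene model Gm45808 on the same strand, so that its counts depend on how shared reads were assigned. It was measured at 55.1, 53.7, 53.7, 51.7 and 54.7 CPM in the wild-type libraries and at 55.0, 51.4, 51.4, 50.3 and 59.8 CPM in the *Grhl2-/-* libraries. The *Grhl2-/-* values lay on both sides of the wild-type range. The estimated log2 fold change was -0.01 (95% confidence interval -0.12 to 0.10, limma-voom FDR 0.929, exact permutation p = 0.889), and its sign changed with the library left out.

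*Mdm2* (chr10:117688875-117710758, minus strand) was measured at 85.4, 91.3, 77.6, 84.7 and 86.0 CPM in the wild-type libraries and at 85.5, 80.3, 83.1, 84.6 and 79.2 CPM in the *Grhl2-/-* libraries. All 5 *Grhl2-/-* values lay inside the wild-type range. Its log2 fold change was -0.04 (95% confidence interval -0.14 to 0.06, limma-voom FDR 0.602, exact permutation p = 0.405), and its sign was kept in 8 of 10 other settings. The intervals of *Mdm2* and *Cdkn1a* did not overlap, although the difference between both genes was not itself tested.

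*Fas* (chr19:34290666-34327772, plus strand) encodes the death receptor of FAS ligand. It had 6, 9, 3, 6 and 5 reads in the wild-type libraries and 7, 4, 3, 5 and 0 reads in the *Grhl2-/-* libraries, 29 and 19 reads in all. The library without a read allows up to 0.116 CPM, the level of 3 reads there, which covers counting error only. *Fas* had fewer than 10 reads in every library and was left out of the fit, and an exact permutation test of its log2 CPM gave p = 0.183. A difference in *Fas* was not detectable at this depth.

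**Figure D3:**
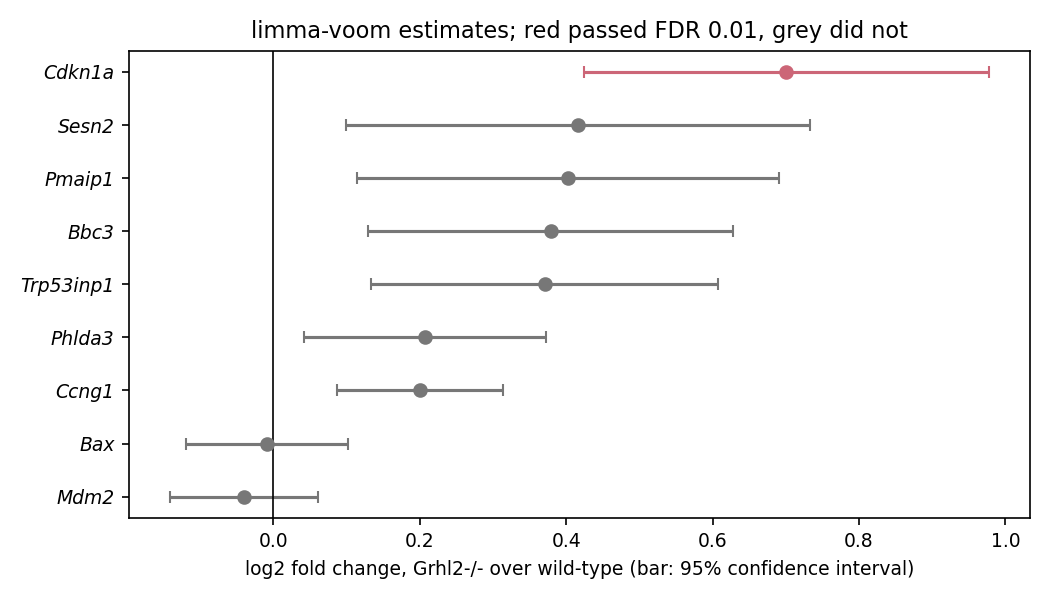
Log2 fold change of Grhl2-/- over wild-type PA1 (horizontal axis) for the 9 members tested with limma-voom, with 95% confidence intervals as bars. The interval of Cdkn1a, in red, runs from 0.42 to 0.98, 6 further intervals lie above 0 with an FDR above 0.01, and those of Bax and Mdm2 span 0.

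Levels were compared between genes as CPM divided by the kilobases of merged exon (RPKM). In wild-type PA1, *Bax* was the most abundant member at 34.1 ± 0.834 RPKM (SD, n = 5), followed by *Ccng1* at 22.7 ± 1.34, *Mdm2* at 16.7 ± 0.967, *Trp53inp1* at 11.1 ± 1.498 and *Phlda3* at 8.81 ± 0.682 RPKM. *Sesn2* was at 5.94 ± 0.550, *Bbc3* at 2.79 ± 0.363, *Cdkn1a* at 1.99 ± 0.323, *Pmaip1* at 1.57 ± 0.300 and *Fas* at 0.109 ± 0.0399 RPKM. The wild-type ranges of the neighbours *Trp53inp1* and *Phlda3* overlapped, as did those of *Cdkn1a* and *Pmaip1*, and the other neighbours were apart. *Cdkn1a* was thus among the scarcest members in wild-type PA1, and it remained a low-level transcript in *Grhl2-/-* PA1 at 3.25 ± 0.445 RPKM.

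The mean of the log2 CPM of the 9 members tested, each centred on its own mean, ranged from -0.18 to -0.12 in the wild-type libraries and from 0.04 to 0.25 in the *Grhl2-/-* libraries. *Grhl2-/-* replicate 1 had the lowest mean of its genotype and replicate 2 the highest. Of 12523 genes outside the lists with a mean of at least 1 CPM, those whose log2 CPM followed this mean most closely over the 10 libraries were *Snx21*, *Ptprs*, *Igfbp3*, *Ift122* and *Grin2c*, with Pearson correlations of 0.98 to 0.99. These points share the difference between genotypes. After each library was centred on its genotype mean, the closest were *Cd47*, *Nfil3*, *Kbtbd11*, *Clip3* and *Numb*, with correlations of 0.96 to 0.98. *Kbtbd11* was at 22.7 CPM in *Grhl2-/-* replicate 2 and 6.46 CPM in replicate 1, the same extremes as this mean. These descriptions depend on leaving out *Fas*. With *Fas* included, the mean ranged from -0.20 to -0.02 in the wild-type libraries and from -0.14 to 0.23 in the *Grhl2-/-* libraries, lowest in *Grhl2-/-* replicate 5, which had no *Fas* read, and 0 of the 5 closest genes were the same in either comparison.

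Of 29 other genes commonly induced by p53, 27 were tested. In limma-voom and in edgeR 0 were higher and 2 were lower, or 7.41% called, against 1.09% of all genes called lower, and in DESeq2 2 were higher and 4 lower, against 3.57% and 3.8% of all genes. The median log2 fold change of the 27 was 0.07. Both called genes are expressed in epithelium. *Sfn* encodes 14-3-3 sigma, a p53-induced checkpoint protein of stratified epithelia, and fell from 9.04 ± 0.987 to 3.42 ± 0.884 CPM (SD, n = 5 each; log2 fold change -1.42, limma-voom FDR 0.000499). *Perp* encodes a desmosomal membrane protein and effector of p53 and p63, and fell from 33.7 ± 3.47 to 24.2 ± 2.14 CPM (n = 5 each; log2 fold change -0.46, limma-voom FDR 0.00717). In both genes every *Grhl2-/-* library lay below every wild-type library. Of the 8 epithelial markers, 5 passed the threshold and were lower, and the part of this marker difference in *Sfn* and *Perp* was not tested.

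When single libraries were left out, *Sfn* was called in 10 of 10 fits and *Perp* in 3, those without *Grhl2-/-* replicate 1, *Grhl2-/-* replicate 3 or wild-type replicate 4. Without wild-type replicates 1 and 2, *Sfn* alone was called, and *Perp* was at -0.38 (limma-voom FDR 0.0391). *Sfn* alone was also called with the title number as a block and with the sensory neuron covariate. Next in order of p was *Abhd4*, an enzyme of N-acyl phospholipid metabolism, with means of 29.7 ± 0.850 CPM over wild-type and 34.8 ± 2.08 CPM over *Grhl2-/-* libraries (SD, n = 5 each; log2 fold change 0.23, limma-voom FDR 0.0236). All *Grhl2-/-* values of *Abhd4* were above all wild-type values. At an unadjusted p below 0.05, 12 of the 27 genes passed. Of these, *Eda2r*, *Rprm*, *Psrc1*, *Ikbip* and *Abhd4* were higher, and *Aen*, *Perp*, *Sesn1*, *Ppm1d*, *Sfn*, *Steap3* and *Ckap2* were lower. Without wild-type replicates 1 and 2, 9 passed. The shares of all genes at this p were 28.5% with all libraries and 18.2% without these wild-type libraries. The same shares apply to the counts at this p in the lists that follow. *Gdf15* had at most 2 reads in any library and was not tested, and *Tigar* was not analysed here.

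*Trp53* itself was measured between 164.5 and 194.7 CPM in wild-type PA1, with a median of 171.4, and between 158.1 and 186.7 CPM in *Grhl2-/-* PA1, with a median of 166.2. The ranges overlapped, and the log2 fold change was -0.05 (95% confidence interval -0.17 to 0.07, limma-voom FDR 0.595). Control of p53 lies largely in the stability of the protein, which transcript counts do not measure. Of the 20 genes of the p53 family and its regulators that were tested in limma-voom, 0 passed an FDR of 0.01 (0 in edgeR and 1, *Chek1*, in DESeq2) and 5 an unadjusted p below 0.05 (3 without wild-type replicates 1 and 2), with a median log2 fold change of -0.04. The smallest p-values were those of *Chek1*, *Trp53bp2* and *Trp63*. *Chek1*, the checkpoint kinase of stalled replication forks, had means of 108 ± 4.66 CPM over wild-type and 95.9 ± 4.20 CPM over *Grhl2-/-* libraries (SD, n = 5 each; log2 fold change -0.17, limma-voom FDR 0.0398), with no overlap between groups. *Trp53bp2*, which encodes the p53-binding protein ASPP2, had a log2 fold change of -0.14 (limma-voom FDR 0.0524). *Trp63*, the p53 relative of basal epithelium, had means of 73.1 ± 5.78 and 61.9 ± 5.31 CPM (n = 5 each; log2 fold change -0.24, limma-voom FDR 0.0566).

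**Figure D4:**
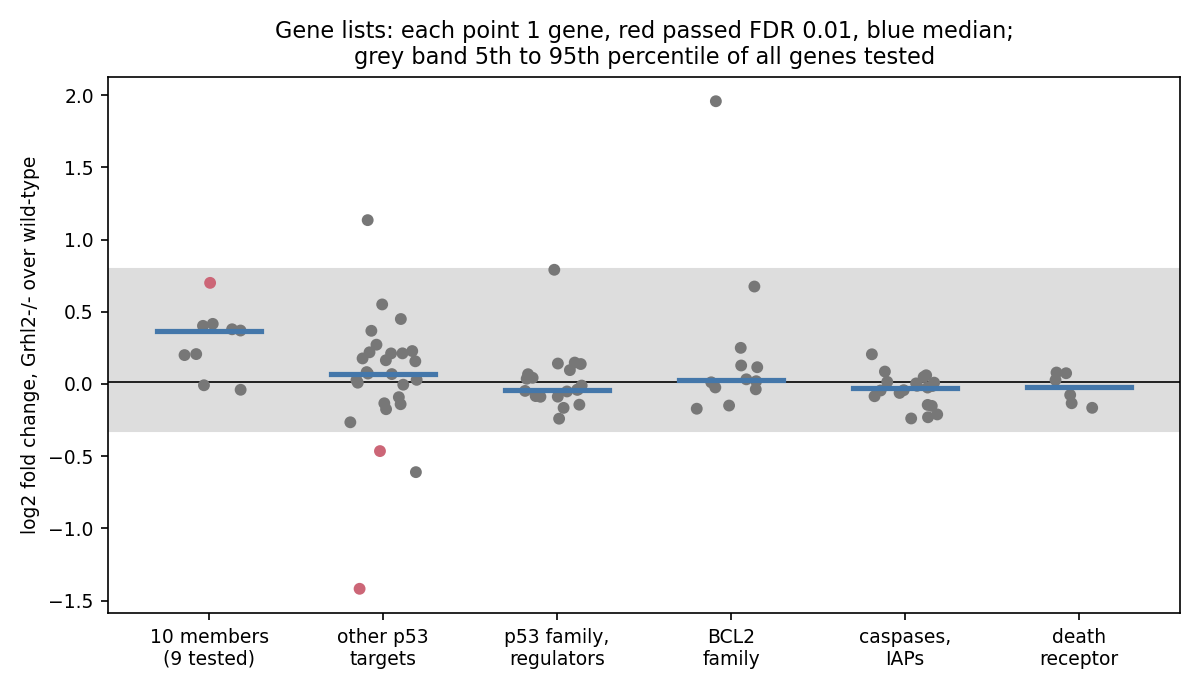
Log2 fold change of Grhl2-/- over wild-type PA1 (vertical axis) for each gene tested in the members and in 5 further lists, one point per gene, with genes past an FDR of 0.01 in red, the median of each list as a blue bar and the 5th to 95th percentile of all genes tested (-0.32 to 0.80) as a grey band. Red points are Cdkn1a among the members and Sfn and Perp among the other p53 targets, and the medians of the further lists lie between -0.04 and 0.07.

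Among 12 other BCL2 family genes, 0 passed an FDR of 0.01 in limma-voom or edgeR, 1 (*Bmf*) in DESeq2, and 4 passed an unadjusted p below 0.05 (2 without wild-type replicates 1 and 2), and the median log2 fold change was 0.03. *Bmf*, which encodes a BH3-only protein tethered to the cytoskeleton, had means of 93.9 ± 8.05 CPM over wild-type and 111 ± 7.05 CPM over *Grhl2-/-* libraries (SD, n = 5 each; log2 fold change 0.25, limma-voom FDR 0.0368). The anti-apoptotic *Mcl1* had a log2 fold change of -0.15 (limma-voom FDR 0.0937). *Hrk*, a BH3-only gene of neurons, was measured at 0.545, 0.395, 0.558, 2.76 and 1.37 CPM in the wild-type libraries and at 1.11, 6.31, 8.24, 2.42 and 3.32 CPM in the *Grhl2-/-* libraries. Its log2 fold change was 1.96 (0.39 to 3.52, limma-voom FDR 0.106), and 1.39 (limma-voom FDR 0.374) without wild-type replicates 1 and 2. Its highest value of each genotype was in the library with the highest sensory neuron sum of that genotype, replicate 4 at 740.8 CPM for wild-type and replicate 3 at 937.7 CPM for *Grhl2-/-* PA1, and the part of these transcripts in *Hrk* was not tested.

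Of 19 caspases, apoptosome components, mitochondrial death factors and inhibitors of apoptosis, 0 passed an FDR of 0.01 in limma-voom, edgeR or DESeq2 and 4 an unadjusted p below 0.05 in limma-voom (1 without wild-type replicates 1 and 2), and the median log2 fold change was -0.02. *Aifm1*, which encodes apoptosis-inducing factor, had a log2 fold change of -0.15 (limma-voom FDR 0.0801). The inhibitor *Birc3* was at -0.23 (limma-voom FDR 0.118) and the initiator caspase *Casp9* at 0.21 (limma-voom FDR 0.118). Of 9 ligands, receptors and adaptors of death receptors, 6 were tested, and again 0 passed with any of the 3 tools, 2 of them with an unadjusted p below 0.05 (0 without these wild-type libraries), with a median log2 fold change of -0.02. *Ripk1*, *Daxx* and *Cflar* had log2 fold changes of -0.17, -0.13 and 0.08 (limma-voom FDR 0.112, 0.0860 and 0.416). The ligands *Fasl*, *Tnf* and *Tnfsf10* had at most 3 reads in any library and were not tested.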

How the data were processed

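Total RNA libraries depleted of ribosomal RNA were read by the authors as single-end reads. STAR alignment to GRCm38 and featureCounts were run by the authors, whose deposited values are raw counts of protein-coding genes in 10 samples. The libraries were stranded, and the name of the deposited table points to counting on the reverse strand. The annotation release is not given in the sources used here. A second deposited table, which holds the authors' own fold changes, average expression and adjusted p-values beside counts, was not used.

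The analysis used R 4.3.3, edgeR 4.0.16 and limma 3.58.1. Genes reaching 10 counts in any sample were kept (14561 of 22114), normalised by TMM, transformed with voom and fitted with genotype as the only term, and genes with a Benjamini-Hochberg FDR below 0.01 over all genes tested were called. TMM, limma-voom and this threshold follow the study's methods, and the count minimum and the model term were chosen here. Differences are *Grhl2-/-* over wild-type on the log2 scale. Two-sided exact permutation tests used log2 CPM with a prior count of 0.5. Replicates were numbered in accession order, which pairs no samples. No pair of libraries of a genotype agreed within sampling noise, with chi-square values per gene of 7.05 to 25.5 over 20 pairs. Positions and exon lengths are from GENCODE release M21. Results were recomputed with DESeq2 1.42.0, edgeR's quasi-likelihood test, other scalings, count filters and thresholds, sample quality weights, the label number as a block, and leaving out each sample. The methods were tested on simulated counts.

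The members and lists were chosen with earlier results of these data known. All 10 members were named, with *Trp53*, *Grhl2*, the genes of each pathway list past the threshold (or the 3 with the smallest p) and the 5 and 5 genes most like the mean of the members, from which *Fas*, the member not tested, was left out.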

Additional observations from a re-analysis of the deposited data

Results flagged for a closer look

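*Chek1*, the checkpoint kinase gene, was at 115.6 CPM in wild-type replicate 1, while the next wild-type library was at 106.8 CPM. On the log2 scale, the gap between them was 0.719 of the wild-type range, above Dixon's 95% critical value of 0.71 for 5 samples. It was the only value past this criterion in 54 groups examined, where chance gives about 2.7.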

How the results depend on the processing

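The log2 fold change of *Cdkn1a* was positive in all 20 other fits, between 0.55 and 0.74 in 10 alternatives (FDR 1.94e-05 to 0.0905, called in 7) and between 0.64 and 0.76 in the 10 fits without 1 library. *Ccng1*, *Phlda3*, *Trp53inp1*, *Sesn2*, *Bbc3* and *Pmaip1* were positive in all 20 as well, and of these only *Ccng1* was called in any, in DESeq2. At an FDR of 0.05, 2 members, 7 other p53 targets and 1123 of all genes were called. DESeq2 called 2 members, 6 other p53 targets and 1073 of all genes, against 1, 2 and 286 in limma-voom. The quasi-likelihood test of edgeR called 1, 2 and 303. Leaving out each replicate in turn gave 0 to 1 members, 1 to 3 other targets and 152 to 385 of all genes, and 4 to 7 members, against 7, at an exact permutation p below 0.05 (25.9% of all genes tested with all samples), the 4 without wild-type replicate 3. The next pair of alternatives was chosen after seeing the data. Without the wild-type libraries with sensory neuron sums below 100 CPM, 0 members, 1 other target and 109 of all genes were called in limma-voom. An unadjusted p below 0.05 was found there for 5 members and for 2638 of 14525 genes. With the sensory neuron marker mean as a covariate, 0 members, 1 other target and 188 of all genes were called, and *Cdkn1a* was at 0.62 (FDR 0.0303). In that fit 7 members and 3027 of 14561 genes had an unadjusted p below 0.05. The cause of these shifts was not tested.

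Same-numbered wild-type and *Grhl2-/-* samples had deviations that correlated between -0.24 and 0.42 over 5 pairs (mean 0.105, against -0.03 over 20 pairs with different numbers), above 0.1 in 3 of the 5. Whether the number marks a litter cannot be told from these values, and it was used as an alternative only. With this number as a replicate block, limma-voom called 0 members, 1 other target and 129 of all genes, and *Cdkn1a* was at 0.55 (FDR 0.0515). In this fit 6 of the 9 members tested and 3751 of 14561 genes had an unadjusted p below 0.05. *Grhl2-/-* replicates 2 and 5, each the only library with its number, add nothing to the genotype difference estimated in this fit. Within numbers 566, 568 and 588, *Cdkn1a* was higher in *Grhl2-/-* PA1 by 0.89, 0.42 and 0.30 on the log2 scale.

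The depth limited *Fas*, whose log2 fold change without a count filter was -0.97 (95% confidence interval -2.29 to 0.36, FDR 0.347).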
